A study of Homo sapiens with 4 samples.

Results

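The genes of the nuclear pore and of nuclear transport were examined in 4 RNA libraries of H9 cells, an established human embryonic stem cell line kept in the primed pluripotent state. Members were chosen by symbol: the nucleoporins whose names begin with NUP and a number, the importins (IPO, KPNA and KPNB1), the transportins (TNPO), the exportins (XPO, without XPO5), the mRNA export pair NXF1 and NXT1, the GTPase RAN and the basket protein TPR. This gave 49 genes of the 33640 counted, and each of the 49 had at least 1 count in every library.

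The study asked whether chromatin profiling and transcriptome profiling in the same nuclei disturb each other, and it varied the order of the steps. Nuclei were extracted from dissociated H9 cells, lightly fixed with formaldehyde, and their polyadenylated RNA was copied in place by reverse transcription (RT). In the Post libraries RT followed Tn5 tagmentation, the step in which a transposase tethered to an antibody inserts adapters into DNA, and in the Pre libraries RT came before it. The libraries termed RNA and DNA had both H3K27me3, a Polycomb mark, and H3K27ac, a mark of active regulatory elements, profiled in the same nuclei, and those termed RNA only had no chromatin mark profiled. Each of the 4 combinations (Post with RNA and DNA, Post with RNA only, Pre with RNA and DNA, Pre with RNA only) was a single library, so no difference has a replicate check and no p-value is given. Which tagmentation steps the RNA only nuclei went through is not given in the sources used here, nor is it given whether the 4 libraries came from one culture.

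The nuclear pore is a ring of repeated protein modules that spans both nuclear membranes. Its scaffold is built from an outer ring (the Y complex) and an inner ring, its channel is filled by proteins rich in phenylalanine and glycine repeats that let transport receptors through, and filaments project from its cytoplasmic and nuclear faces. Importins carry cargo in, exportins carry cargo out, and RAN, loaded with GTP in the nucleus, tells each receptor on which side it is. In pluripotent cells the makeup of the pore and of the importin alpha family is known to change as the cells differentiate.

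Libraries were told apart by the RT primer, and these primers are shown because the short identifier within each assigns the reads of every member to their condition. The identifiers are matched to the libraries by their number in the study's list of oligonucleotides. Capitals mark the 5 bases of the identifier, n marks the 8 bases of the unique molecular identifier, and a poly-T stretch with a biotin follows each sequence printed.
Post, RNA and DNA: aggccagagcattcgTGTGAnnnnnnnn
Post, RNA only: aggccagagcattcgGTCGAnnnnnnnn
Pre, RNA and DNA: aggccagagcattcgCCTAAnnnnnnnn
Pre, RNA only: aggccagagcattcgAGCAAnnnnnnnn

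Total counts ranged from 6368721 (Post, RNA only) to 10089552 (Post, RNA and DNA). Of 14 pluripotency markers, 13 reached 10 RPM (counts of a gene per 1000000 counts of its library) in every library, and the list summed to between 2657 and 3688 RPM, whereas 6 endoderm markers summed to at most 8.82 RPM and the mesoderm and trophectoderm markers to at most 1.28 and 4.86 RPM. The endoderm gene SOX17 was at 0 in 3 libraries, and neural and fibroblast markers summed to at most 28.6 and 51.1 RPM, led by TUBB3 and COL1A2. A set of 6 genes named after the genomic clones FP236383 and FP671120 took 34.8% of the counts in the Post library with RNA only and 10.7% to 15.8% elsewhere, which lowers the RPM of every other gene in that library. For this reason a ratio between libraries is given here after subtracting the median log2 ratio of the 11564 genes that averaged at least 10 RPM, and is called a relative log2 ratio, with a pseudocount of 1 RPM. Before this centring that median was -0.09 for Post over Pre in the RNA and DNA libraries, -0.44 for Post over Pre in the RNA only libraries, 0.38 for RNA and DNA over RNA only in the Post libraries and 0.03 for the same contrast in the Pre libraries, all on the log2 scale. Intervals are 95% and cover counting error only.

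Together the 49 members took 5106 RPM in the Post library with RNA and DNA and 4105 RPM in the Post library with RNA only, against 5814 RPM in the Pre library with RNA and DNA and 5627 RPM in the Pre library with RNA only. Set against totals without the clone genes, these sums were 6066 and 6297 RPM in the Post libraries and 6510 and 6418 RPM in the Pre libraries, with RNA and DNA given before RNA only. The Post libraries were the lower pair on both scales. In RPM, 41 of the 46 members that averaged at least 10 RPM had their lowest value in the Post library with RNA only, beside 82.5% of all genes past the same minimum. Without the clone genes in the totals, 18 of the 46 members were lowest there, beside 38.1% of all genes.

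Mean RPM spanned from 2.32 RPM for KPNA7, an importin alpha known from oocytes and early embryos, to 345 RPM for XPO1, the main receptor for proteins with a leucine-rich export signal. KPNB1, the importin beta that pairs with the importin alphas, averaged 332 RPM and TPR, the filament of the nuclear basket, 303 RPM. The 3 members under 10 RPM were KPNA7, NXT1 (3.13 RPM), the small partner of the mRNA export receptor NXF1, and IPO13 (7.34 RPM), a receptor that carries cargo both ways. Just above this minimum stood NXF1 with 11.5 RPM and NUP62CL, a relative of the channel protein NUP62, with 12.2 RPM.

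RT was primed from poly-T, which can pair with the tail of a transcript or with a run of A within unspliced RNA, so counts need not scale with the length of a gene's exons, and neither RPM nor RPM per exon kb ranks the members by their number of transcripts. Over the 46 members Spearman's rho between mean RPM and annotated exon length was 0.47, beside 0.35 over 10236 annotated genes. RPM per kilobase of annotated exon was 32.8 for IPO7, an import receptor for ribosomal proteins among others, 32.2 for KPNB1 and 30.8 for TNPO3, which brings splicing factors rich in serine and arginine into the nucleus. XPO1, whose annotated exons cover 23.8 kb, had 14.5 RPM per exon kb, and RAN, with 4.67 kb of exon, had 21.5. KPNA7 had 1.17, IPO13 1.45 and NXF1 1.86 RPM per exon kb. Exons of 20 members, NUP98, NUP107, NUP214, KPNB1, XPO1 and TPR among them, overlap a gene on the other strand, and since it is not given whether counting used strand, reads of such pairs may not be told apart.

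**Figure D1:**
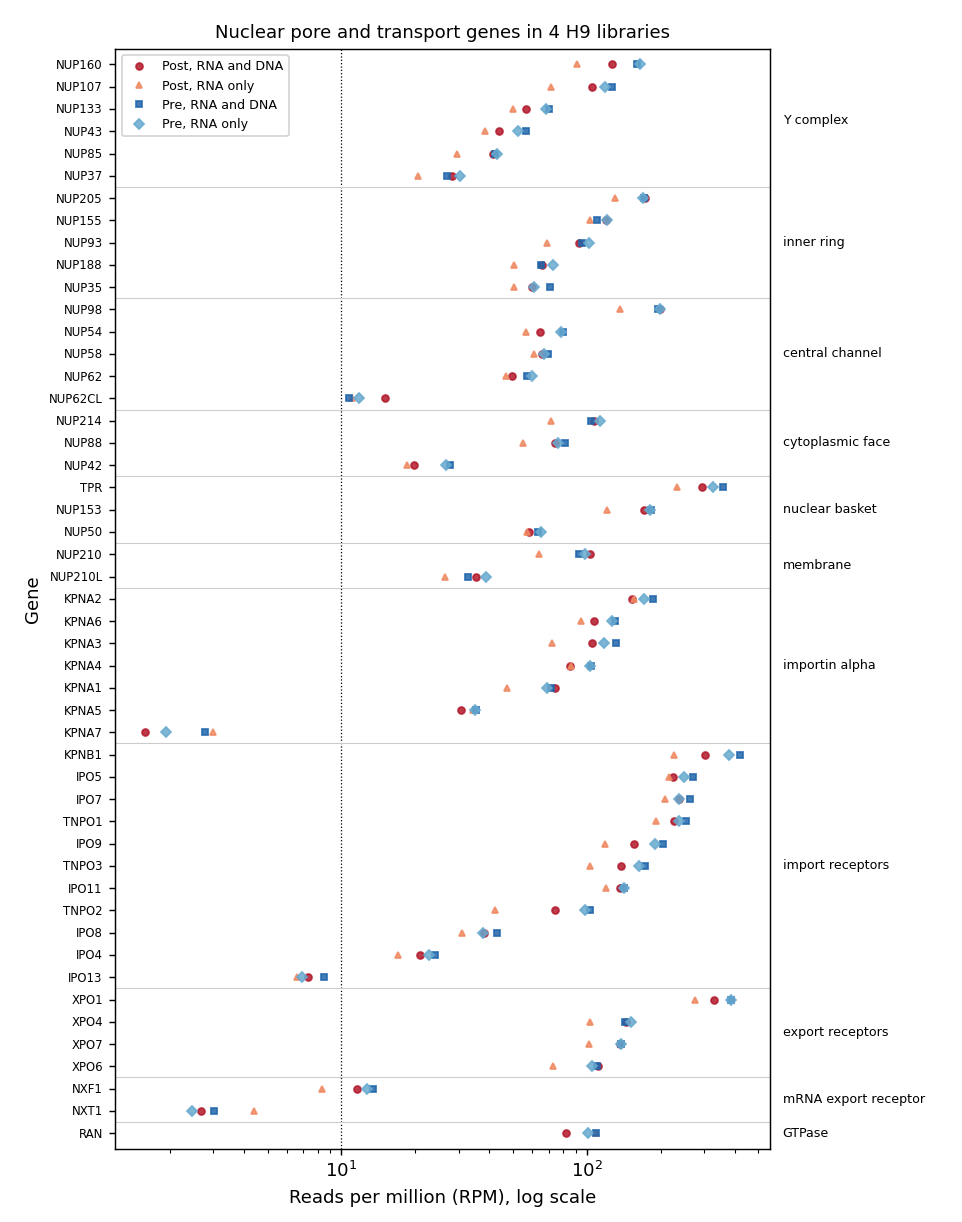
RPM of the 49 members (log scale) in the 4 libraries, with members grouped by their place in the pore or role in transport and sorted within each group by mean level. The dotted line marks 10 RPM, under which KPNA7, IPO13 and NXT1 lie, and the orange triangles of the Post library with RNA only lie farthest left for 41 of the 46 members above it on average.

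Most of these genes stayed close to the median gene with RT placed after tagmentation. In the RNA and DNA libraries, Post over Pre, the median of the 46 members was -0.09 on the relative log2 scale, with 18 members above and 28 below the median gene. In the RNA only libraries it was -0.05, with 20 above and 26 below. The standard deviation was 0.19 over the members and 0.25 over all genes in the RNA and DNA libraries, and 0.23 over the members and 0.36 over all genes in the RNA only libraries. Members and all genes were not matched for level here.

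A rule of size, 1.5-fold relative to the median gene, was applied to the members that averaged at least 10 RPM. For Post over Pre in the RNA and DNA libraries 0 members passed it in either direction. It took 1.1% of all genes upward and 2.02% downward there. For Post over Pre in the RNA only libraries it was passed upward by 0 members and downward by 1, where it took 5.26% and 2.01% of all genes. Counting error alone was small enough to place more members. In the RNA and DNA libraries the interval lay wholly above the median gene for 7 and wholly below it for 18 members, that is 15.2% and 39.1% of them, against 17.7% and 19.7% of all genes. In the RNA only libraries it lay wholly above for 11 and wholly below for 10 members, or 23.9% and 21.7%, against 18.8% and 21.4% of all genes. Counting intervals narrow with depth, and 36 of the 46 members averaged at least 50 RPM, against 4227 of the 11564 genes. The shares of members and of all genes are thus not matched for level. Since a counting interval of 1 library against 1 library leaves out the spread between preparations, these shares describe these libraries and not the order of steps. In bulk nuclei, fewer nuclei with a transcript and less of it per nucleus cannot be told apart.

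**Figure D2:**
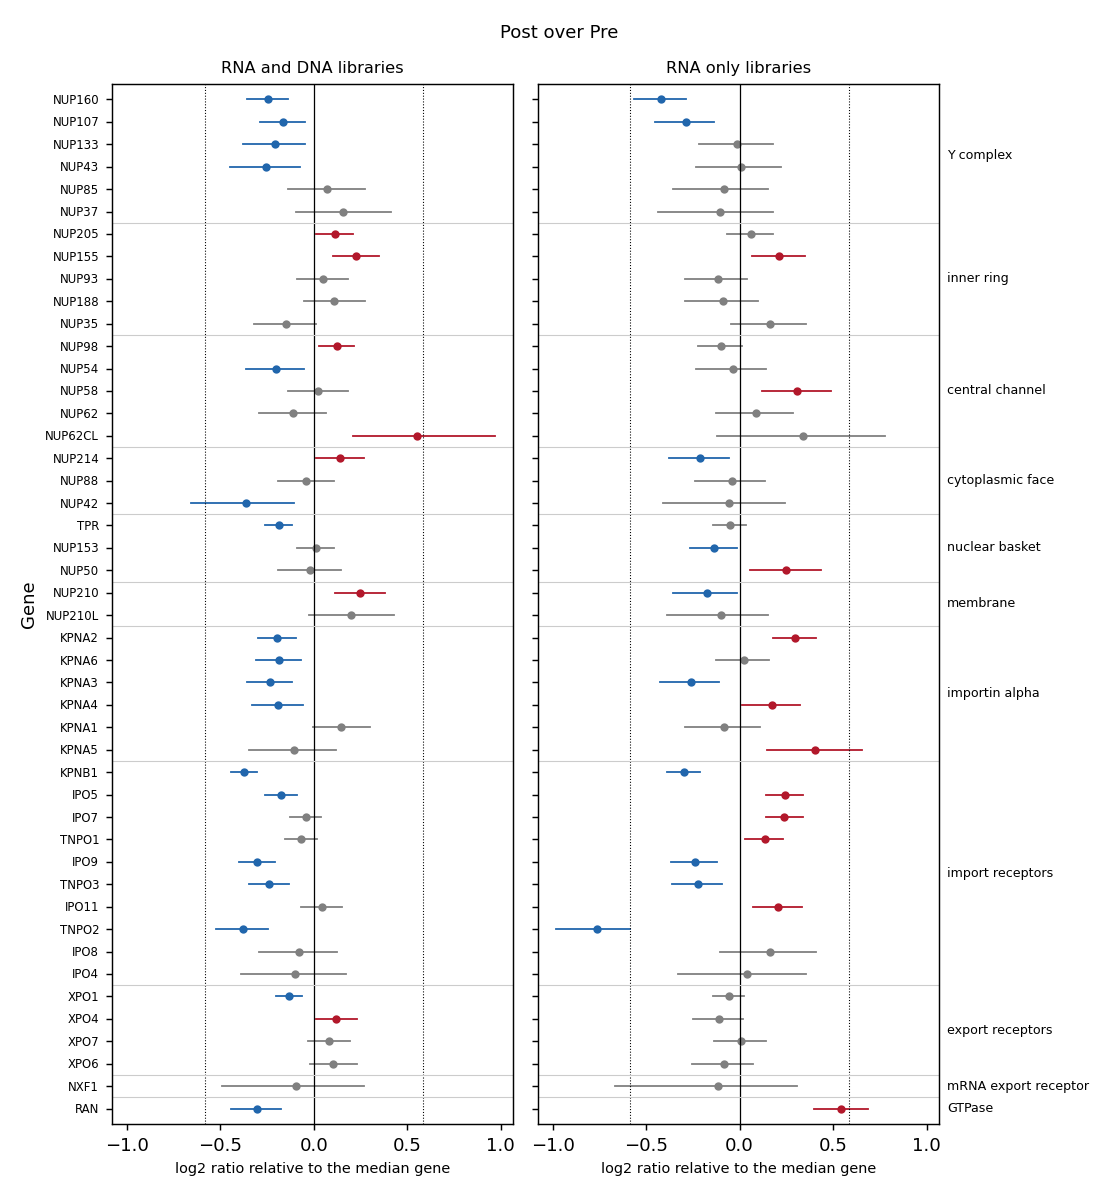
Post over Pre in the RNA and DNA libraries (left) and the RNA only libraries (right) for the 46 members that averaged at least 10 RPM, as log2 ratios relative to the median gene. Bars are 95% counting intervals, colored red where wholly above 0 and blue where wholly below, and dotted lines mark 1.5-fold. TNPO2 on the right, at -0.76, is the single point past a dotted line.

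Among the scaffold, the 6 members of the Y complex had a median of -0.19 for Post over Pre in the RNA and DNA libraries, with 4 of 6 below the median gene, and of -0.09 in the RNA only libraries, with 5 of 6 below. NUP160, part of an arm of the Y, was its member with the highest RPM. It had 126 RPM in the Post library with RNA and DNA and 90.8 RPM in the Post library with RNA only. The Pre libraries had 160 RPM with RNA and DNA and 165 RPM with RNA only. In RPM both Post libraries were below both Pre libraries, as also for KPNB1, XPO1, TPR and further members. The relative log2 ratios of NUP160 were -0.25 (interval -0.36 to -0.14) in the RNA and DNA libraries and -0.42 (-0.57 to -0.29) in the RNA only libraries. NUP107, which sits in the stem of the Y, had -0.17 and -0.29 in the same order of pairs.

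The inner ring holds the pore to the membrane and to the channel. Its 5 members had a median of 0.11 in the RNA and DNA libraries. There 4 were above the median gene and 2 had intervals wholly above, beside 17.7% of all genes. In the RNA only libraries the median was 0.06, with 3 above and 2 below. There 1 interval lay wholly above, beside 18.8% of all genes, not matched for level. NUP155, which touches the membrane, had intervals wholly above the median gene in both pairs, with 0.23 (0.10 to 0.35) in the RNA and DNA libraries and 0.21 (0.07 to 0.35) in the RNA only libraries. NUP205, the member of the ring with the highest RPM, had 172 and 130 RPM in the Post libraries with RNA and DNA and with RNA only, against 170 and 169 RPM in the Pre libraries in the same order. Its Post library with RNA only was low in RPM, and relative to the median gene its ratios were 0.11 and 0.06. NUP35, a small membrane-binding member, was the only one of the 5 below the median gene in the RNA and DNA libraries, with -0.15 (-0.32 to 0.01), and had 0.16 (-0.05 to 0.36) in the RNA only libraries.

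Of the channel proteins, NUP98, which carries the glycine, leucine, phenylalanine and glycine repeats typical of the central barrier, had 199 RPM in the Post library with RNA and DNA and 136 RPM in the Post library with RNA only, against 195 and 198 RPM in the Pre libraries with RNA and DNA and with RNA only. Its relative log2 ratios were 0.12 (0.03 to 0.22) in the RNA and DNA libraries and -0.10 (-0.22 to 0.01) in the RNA only libraries. NUP62CL had the highest ratio of all members in the RNA and DNA libraries, with 15.1 RPM in the Post and 10.7 RPM in the Pre library, or 0.55 (0.21 to 0.97), just under the 1.5-fold line of 0.58. It also had 0.34 (-0.12 to 0.78) in the RNA only libraries, with 10.99 RPM in the Post and 11.8 RPM in the Pre library. With 70 to 152 counts in a library it is among the shallowest members past the minimum.

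At the cytoplasmic face, NUP214, which with NUP88 forms the platform where mRNA leaves the pore, had 107 and 71.4 RPM in the Post libraries with RNA and DNA and with RNA only, against 104 and 113 RPM in the Pre libraries. The Post library with RNA only stands apart, and the ratios took opposite signs, 0.14 (0.01 to 0.27) with RNA and DNA and -0.21 (-0.38 to -0.06) with RNA only. TPR, which shapes the nuclear basket, had 294 and 233 RPM in the Post libraries against 357 and 327 RPM in the Pre libraries, giving -0.19 (-0.26 to -0.11) with RNA and DNA and -0.05 (-0.14 to 0.04) with RNA only. NUP210, a membrane glycoprotein of the pore known in mouse for rising when stem cells differentiate into muscle and neural cells, had 103 and 64.1 RPM in the Post libraries against 92.7 and 98.5 RPM in the Pre libraries, or 0.25 (0.11 to 0.38) with RNA and DNA and -0.18 (-0.35 to -0.01) with RNA only. NUP210L, its paralog, had 0.20 and -0.10.

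The import receptors of the importin beta family differed in their balance between the pairs. In the RNA and DNA libraries 9 of the 10 that passed the minimum were below the median gene, with a median of -0.14. The intervals of 5 lay wholly below, beside 19.7% of all genes. In the RNA only libraries 4 of 10 were below, with a median of 0.09. There 4 intervals lay wholly above and 4 wholly below, beside 18.8% and 21.4% of all genes, not matched for level. The import receptors lower in both pairs, with intervals wholly below, were KPNB1, IPO9, which imports histones, TNPO3 and TNPO2.

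TNPO2, a close relative of the import receptor TNPO1, had 74.1 RPM (interval 68.9 to 79.6) in the Post library with RNA and DNA and 42.2 RPM (37.3 to 47.6) in the Post library with RNA only, against 103 RPM (96.7 to 110) in the Pre library with RNA and DNA and 98.4 RPM (92.2 to 105) in the Pre library with RNA only. Both Post values lay under both Pre values, as for KPNB1, XPO1, TPR and further members. In RPM the Post library with RNA only was lowest, as for 41 of the 46 members and 82.5% of all genes past the minimum. Relative to the median gene TNPO2 was 1.70-fold lower in the RNA only libraries, with a log2 ratio of -0.76 (-0.98 to -0.58). Of the members that averaged at least 10 RPM, it was the single one past 1.5-fold there. In the RNA and DNA libraries its log2 ratio was -0.38 (-0.52 to -0.24), the lowest of any member above that minimum in that pair. TNPO1 had -0.07 in the RNA and DNA libraries and 0.13 in the RNA only libraries. In the annotation (GENCODE 44, GRCh38) TNPO2 lies on the minus strand of chromosome 19, from 12699201 to 12724011, with no exon shared with another gene.

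KPNB1 had 303 RPM in the Post library with RNA and DNA and 227 RPM in the Post library with RNA only, against 420 and 379 RPM in the Pre libraries with RNA and DNA and with RNA only. It was lower in both pairs, with -0.37 (-0.44 to -0.31) in the RNA and DNA libraries and -0.30 (-0.39 to -0.21) in the RNA only libraries. IPO5 and IPO7, which both import ribosomal proteins, had -0.18 and -0.04 in the RNA and DNA libraries, and 0.24 each in the RNA only libraries.

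The importin alphas, adaptors that recognise the classical import signal and hand cargo to KPNB1, had a median of -0.19 over 6 members in the RNA and DNA libraries, with 5 of 6 below the median gene, and of 0.10 in the RNA only libraries, with 2 of 6 below. KPNA2, the form typical of pluripotent cells, had 152 RPM in the Post library with RNA and DNA and 155 RPM in the Post library with RNA only, against 186 and 171 RPM in the Pre libraries. Its RPM was nearly equal in both Post libraries, and its ratio was -0.19 (-0.30 to -0.10) with RNA and DNA and 0.30 (0.18 to 0.41) with RNA only. Of these 6, KPNA5 had the highest ratio in the RNA only libraries, 0.40 (0.15 to 0.65). KPNA1 was the only one above the median gene in the RNA and DNA libraries, with 0.15 (-0.01 to 0.30).

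Of the export receptors, XPO1 had 331 and 275 RPM in the Post libraries with RNA and DNA and with RNA only, against 387 and 388 RPM in the Pre libraries. Both ratios were small, -0.13 (-0.20 to -0.06) with RNA and DNA and -0.06 (-0.14 to 0.02) with RNA only. XPO4, XPO6 and XPO7 ranged from 0.08 to 0.12 in the RNA and DNA libraries and from -0.11 to 0.01 in the RNA only libraries. NXF1, the receptor for bulk mRNA, had 11.6 and 8.32 RPM in the Post libraries against 13.4 and 12.7 RPM in the Pre libraries, with ratios of -0.10 and -0.12 whose intervals spanned 0. A difference of NXF1 was not detectable at 53 to 120 counts per library. NXT1 had 27 and 28 counts in the Post libraries with RNA and DNA and with RNA only, against 27 and 23 counts in the Pre libraries, too few to rank.

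RAN, the switch on which every receptor here depends except NXF1, had 82.4 RPM (76.9 to 88.2) in the Post library with RNA and DNA and 109 RPM (101 to 117) in the Post library with RNA only, against 109 RPM (102 to 116) in the Pre library with RNA and DNA and 101 RPM (94.8 to 108) in the Pre library with RNA only. The Post library with RNA and DNA was below the other 3, and the Post library with RNA only, lowest for most members, was not low for RAN. Relative to the median gene RAN was 0.54 (0.40 to 0.69) in the RNA only libraries and -0.31 (-0.44 to -0.17) in the RNA and DNA libraries. The ratio in the RNA only libraries was the highest of any member that averaged at least 10 RPM. RAN lies on the plus strand of chromosome 12, from 130872037 to 130877678, and 9 annotated pseudogenes bear its name, so reads that fit a copy equally well may be missing from its count, since the study's methods keep uniquely mapped reads in the single-cell data.

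**Figure D3:**
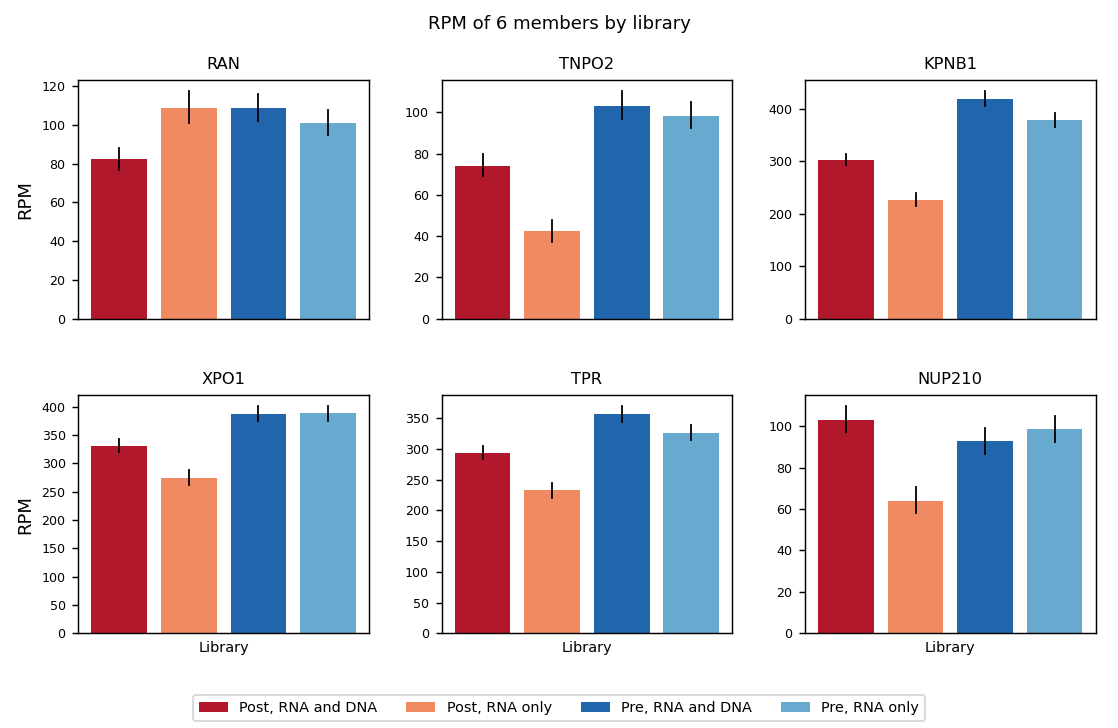
RPM of RAN, TNPO2, KPNB1, XPO1, TPR and NUP210 in the 4 libraries, each panel starting at 0, with 95% counting intervals as black lines. The Post library with RNA only is the lowest bar in every panel but that of RAN, where it stands at 109 RPM and the Post library with RNA and DNA, at 82.4 RPM, is lowest.

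The pairs of Post and Pre libraries share no library, so the members' values can be set side by side. Of 46 members, 6 were above and 14 below the median gene in both pairs, 14 were above it with RNA only and below it with RNA and DNA, and 12 the reverse, whereas all genes fell into these 4 classes by 24.4%, 24.4%, 25.6% and 25.6%. Counting intervals lay on opposite sides of the median gene in the pairs for 6 of the 46 members, beside 10.2% of all genes, and for 3 members, beside 7.86% of all genes, when the same 4 libraries were set out as RNA and DNA over RNA only in the Pre and in the Post pair. Over the 46 genes, which share depth and preparation within each library and are not independent, Pearson's r was 0.22 and Spearman's rho 0.10, and over all 11564 genes these were 0.02 and -0.05.

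Between libraries with and without chromatin marks profiled, the median member lay at the median gene. The members, like all genes, lay farther apart in the Post than in the Pre libraries. For RNA and DNA over RNA only, the median of the members was 0.01 in the Post libraries and 0.01 in the Pre libraries, with 24 above and 22 below the median gene in each. The standard deviation over members was 0.23 in the Post libraries and 0.10 in the Pre libraries, against 0.37 and 0.15 for all genes, again not matched for level.

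Only members that averaged at least 10 RPM were counted. In the Post libraries 0 were at least 1.5-fold higher and 1 was at least 1.5-fold lower with RNA and DNA than with RNA only. There 1.34% and 7.63% of all genes passed. In the Pre libraries 0 members passed, against 0.0605% higher and 0.156% lower over all genes. Intervals lay wholly above the median gene for 9 and wholly below for 14 members in the Post libraries, beside 20.7% and 20.4% of all genes, and for 6 and 4 members in the Pre libraries, beside 7.58% and 6.96%. These shares too are not matched for level.

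RAN was the member of at least 10 RPM on average that was past 1.5-fold in the Post libraries. From the values given above it was 1.71-fold lower with RNA and DNA than with RNA only relative to the median gene, a log2 ratio of -0.78 (-0.93 to -0.63), and in RPM alone, without centring, the log2 ratio was -0.40. In the Pre libraries RAN had 0.08 (-0.05 to 0.21). The opposite end in the Post libraries was TNPO2 with 0.42 (0.23 to 0.64), which in the Pre libraries had 0.04 (-0.09 to 0.18).

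The importin alphas were split in the Post libraries, with a median of -0.30. Of 6 intervals, 4 lay wholly below the median gene and 2 wholly above, beside 20.4% and 20.7% of all genes, not matched for level. KPNA5 had -0.53 (-0.79 to -0.28), KPNA2 -0.41 (-0.52 to -0.29) and KPNA4 -0.39 (-0.55 to -0.23), whereas KPNA1 had 0.26 (0.07 to 0.47). In the Pre libraries the 6 ranged only from -0.02 to 0.14. KPNA3, at the upper end there with 0.14 (0.02 to 0.26), also had 0.16 in the Post libraries.

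Import receptors were above the median gene in 9 of 10 cases in the Pre libraries, with a median of 0.08. There 3 intervals lay wholly above, beside 7.58% of all genes, not matched for level. In the Post libraries 4 of 10 were above, with a median of -0.10. KPNB1 had 0.04 (-0.05 to 0.13) in the Post and 0.12 (0.06 to 0.19) in the Pre libraries. IPO5 had -0.32 (-0.41 to -0.22) in the Post and 0.11 (0.03 to 0.19) in the Pre libraries.

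Among pore proteins, NUP35 had the highest ratio in the Pre libraries of any member that averaged at least 10 RPM, at 0.18 (0.02 to 0.35). It had 70.8 RPM with RNA and DNA and 61.1 RPM with RNA only there, and a ratio of -0.14 (-0.33 to 0.07) in the Post libraries. NUP210L had the lowest in the Pre libraries, with 32.8 RPM with RNA and DNA and 38.7 RPM with RNA only, or -0.26 (-0.49 to -0.04), and 0.03 in the Post libraries. Both are modest in depth, with 573 to 634 counts for NUP35 and 294 to 363 counts for NUP210L in the Pre pair. NUP50, a basket protein that helps release import cargo, had -0.34 (-0.54 to -0.15) in the Post libraries, and NUP210 had 0.30 (0.14 to 0.48) there. The Y complex and the inner ring had medians of 0.08 and 0.00 in the Post libraries and of -0.02 and -0.11 in the Pre libraries.

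**Figure D4:**
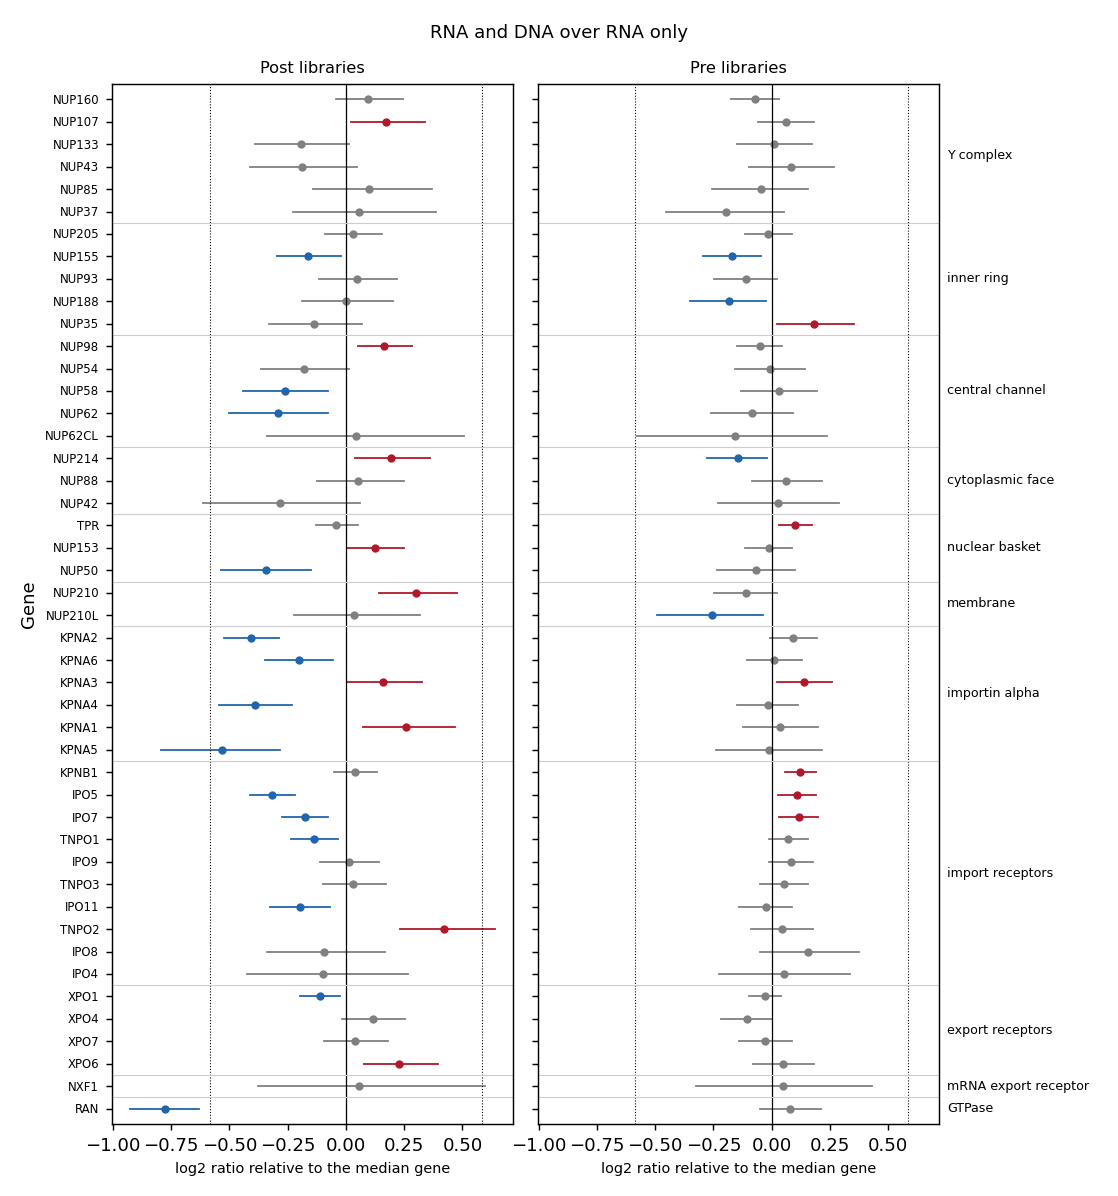
RNA and DNA over RNA only in the Post libraries (left) and the Pre libraries (right) for the 46 members, as log2 ratios relative to the median gene with 95% counting intervals, colored as red above and blue below 0. Points spread from -0.78 (RAN) to 0.42 (TNPO2) on the left and from -0.26 to 0.18 on the right.

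Gene span moved with these ratios, in members as in all genes. Median gene span, introns included, was 65.4 kb over the 46 members and 50.9 kb over the 10236 annotated genes past the minimum. Spearman's rho between span and relative ratio over the members was 0.53 for Post over Pre in the RNA and DNA libraries and -0.19 in the RNA only libraries, beside 0.49 and -0.32 over all genes. For RNA and DNA over RNA only it was 0.40 in the Post and -0.33 in the Pre libraries, beside 0.54 and -0.23 over all genes. Annotated exon length gave, for Post over Pre, 0.11 with RNA and DNA and -0.05 with RNA only, beside 0.27 and -0.20 over all genes. For RNA and DNA over RNA only, exon length gave 0.02 in the Post and -0.13 in the Pre libraries, beside 0.32 and -0.11.

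RAN, with 5.64 kb, is the shortest member past the minimum. In the tenth of genes with the shortest spans, to which RAN belongs, the median was -0.50 for RNA and DNA over RNA only in the Post libraries, -0.26 for Post over Pre in the RNA and DNA libraries and 0.36 for Post over Pre in the RNA only libraries. Less these medians RAN had -0.28, -0.04 and 0.18. TNPO2, of 24.8 kb, kept -0.81 for Post over Pre in the RNA only libraries, -0.27 in the RNA and DNA libraries and 0.56 for RNA and DNA over RNA only in the Post libraries when set against genes of like span. KPNB1 kept -0.30 and -0.31 for Post over Pre with RNA only and with RNA and DNA. The share of counts in the clone genes also differed most for the Post library with RNA only. The parts of gene span and of the clone share in these ratios were not tested.

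**Figure D5:**
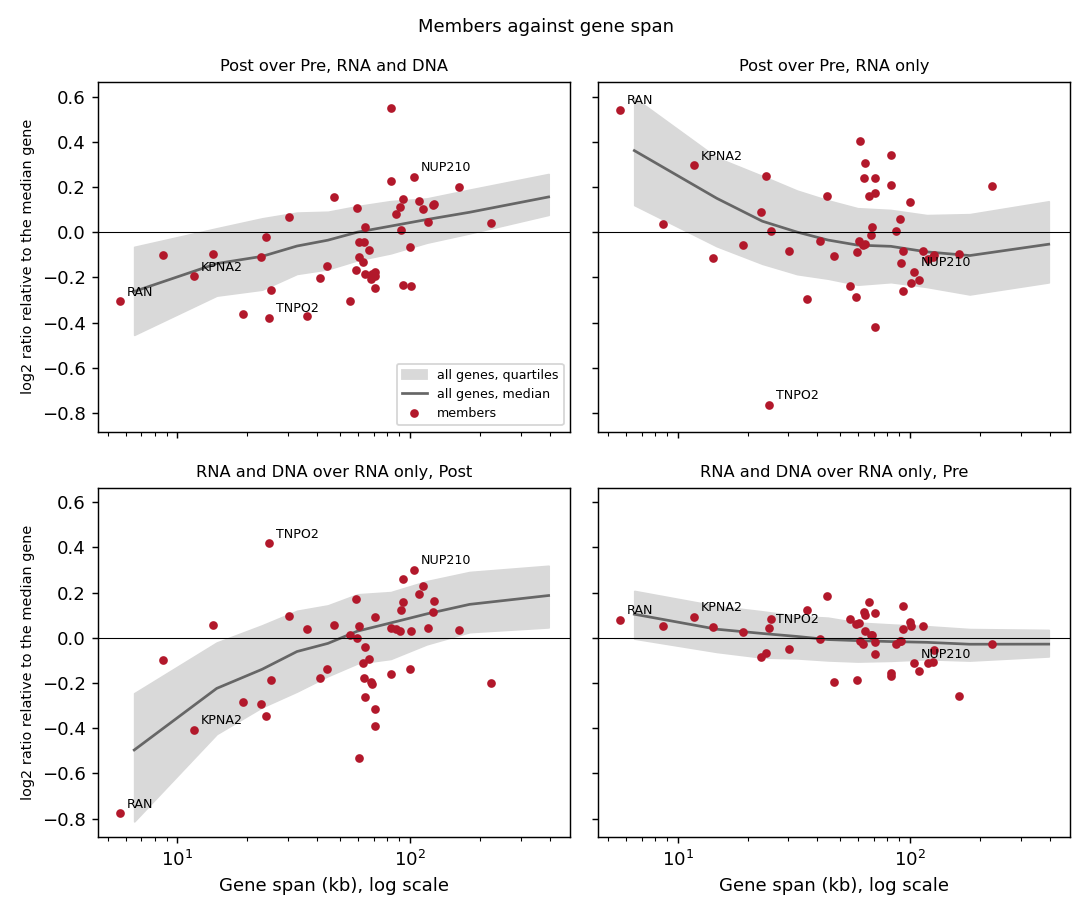
Relative log2 ratio against gene span (log scale) for the 46 members (red points) in the 4 comparisons, over the median (grey line) and quartiles (grey band) of all annotated genes in 10 bins of span. The line climbs with span for Post over Pre in the RNA and DNA libraries and for RNA and DNA over RNA only in the Post libraries, RAN lies near its short end in each panel, and TNPO2 lies outside the band in 3 of the 4.

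Other pore and transport genes were followed by symbols that the name rule does not catch. The list held 45 symbols, some of them alternative names of genes already counted, and 41 were in the files. Of these, 35 averaged at least 10 RPM. Their median was 0.01 for Post over Pre in the RNA and DNA libraries and -0.11 in the RNA only libraries, and for RNA and DNA over RNA only 0.01 in the Post and -0.04 in the Pre libraries. For Post over Pre in the RNA only libraries, the rule of 1.5-fold was passed upward by 1 of the 35 and downward by 0. Over all genes these shares were 5.26% and 2.01%. In the RNA and DNA libraries 0 passed, against 1.1% upward and 2.02% downward of all genes. For RNA and DNA over RNA only it was passed by 1 in each direction in the Post libraries, against 1.34% higher and 7.63% lower of all genes. In the Pre libraries 0 passed, against 0.0605% and 0.156% of all genes.

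RCC1, the exchange factor that loads RAN with GTP on chromatin, had 189 and 211 RPM in the Post libraries with RNA and DNA and with RNA only, against 144 and 158 RPM in the Pre libraries. It was higher in both Post libraries than in both Pre libraries, with a relative ratio of 0.85 (0.75 to 0.96) in the RNA only libraries and 0.48 (0.38 to 0.59) in the RNA and DNA libraries. RCC1 shares exons on its own strand with the small nucleolar RNA host gene SNHG3, and reads of the pair may not be told apart. RANBP1, which helps strip RAN from receptors in the cytoplasm, had 41.3 and 51.5 RPM in the Post libraries against 52.0 and 51.8 RPM in the Pre libraries. Like RAN it was lowest in the Post library with RNA and DNA, with -0.69 (-0.91 to -0.48) for RNA and DNA over RNA only in the Post libraries. MAD1L1, a spindle checkpoint protein anchored at the basket by TPR, had 147 and 72.9 RPM in the Post libraries against 125 and 134 RPM in the Pre libraries. Its ratio for the same contrast was 0.63 (0.49 to 0.79). Genes of spans like RANBP1 (11.4 kb) and MAD1L1 (417 kb) had medians of -0.22 and 0.19 there, and the part of span was not tested. RANBP1 overlaps exons of SNORA77B on its own strand and of TRMT2A on the other, and MAD1L1 those of an unnamed gene on its own strand.

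Promoters, as windows around each annotated start in the RefSeq set (GRCh38.p14), were found for 43 of the 49 members, 55 in all. Motifs were searched on both strands, and none of those given here contains another. The ETS core CCGGAAG was in 13 of the 55, or 23.6%, against 10.3% of all 35116 promoters, the CCAAT box in 50.9% against 34.6%, the GC box GGGCGG in 50.9% against 45.0%, the NRF1 core GCATGCGC in 7.27% against 3.05%, the E-box CACGTG in 14.5% against 7.26% and the TATA box TATAAA in 9.09% against 11.5%. The letters ACTACAATT, a ZNF143 core, were in 0 of the 55 and in 0.336% of all. The E-box was in a RefSeq window of 8 members. RAN and TNPO2, past 1.5-fold in different comparisons, are among them, and their E-box is printed in capitals. IPO4, IPO7, KPNA3, NUP188, NUP50 and XPO1 also hold it and were past 1.5-fold in no comparison. The GC box too is in both RAN and TNPO2. A link between the E-box and the ratios was not tested. The starts differ between the annotations, since GENCODE 44 begins RAN 29 bases and TNPO2 79 bases upstream of the RefSeq starts used here, at 130872066 on chromosome 12 and 12723932 on chromosome 19. For RAN the bases before both starts are shown. In TNPO2 the E-box lies within the gene as GENCODE 44 draws it, so only 12 bases on each side are shown. A match of letters is a description and not a binding site.
RAN, chr12:130871816-130872036, plus strand: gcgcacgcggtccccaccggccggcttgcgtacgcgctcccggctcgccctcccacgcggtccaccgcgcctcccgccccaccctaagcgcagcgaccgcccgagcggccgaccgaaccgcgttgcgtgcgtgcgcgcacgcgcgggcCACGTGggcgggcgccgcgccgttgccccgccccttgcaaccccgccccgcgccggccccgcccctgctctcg
TNPO2, chr19:12723939-12723968, minus strand: ggcggctttctgCACGTGtttctcagccca
In the RefSeq windows the E-box begins 102 bases before the start of RAN and 24 bases before that of TNPO2. The stretch printed for RAN is 81.9% G and C. Of the other RefSeq start of TNPO2, downstream, the 250 bases before it hold no E-box.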

How the data were processed

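The authors deposited count tables, 1 per library, with whole-number counts per gene symbol and barcode, unnormalized. Per the submitters' processing notes the tools were STAR 2.7.11b, Bowtie2 2.5.3 and Bowtie 1.3.1, with SAMtools and Trim Galore 0.6.10, and the genome build was GRCh38. For its single-cell data the study's methods assign barcodes with Bowtie, trim with Trim Galore, map with STAR, keep uniquely mapped reads with SAMtools and remove duplicates by position and unique molecular identifier. Whether each step was applied here, the gene annotation and the use of strand are not given in the sources used here. If duplicates remain, intervals are too narrow. The column whose barcode numbers match a library was used, and 60 other barcode columns were not.

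Counts were scaled to RPM. Ratios were log2((RPM + 1)/(RPM + 1)), less the median over genes that averaged at least 10 RPM. Intervals of RPM are exact Poisson intervals and those of ratios exact conditional binomial intervals of the counts, shifted by the same median, at 95%. With 1 library per condition no test was run, and a size of 1.5-fold took its place. Gene positions, spans and exon lengths came from GENCODE 44, to which 21841 genes matched by symbol. Of the members, 20 overlap an exon on the other strand, 9 on the same strand, and 14 have pseudogenes of their name. Members and lists were chosen with earlier results of these data known. Named by rule were the highest member of each role group, members past 1.5-fold, the highest and lowest ratio in each comparison, and RAN, KPNB1, XPO1, NXF1, NXT1 and TPR, and the remaining names were chosen after their values were seen. Python 3.11.15, pandas 2.3.3, numpy 2.4.6, scipy 1.17.1, matplotlib 3.10.9, R 4.3.3 and edgeR 4.0.16 (TMM library sizes only) were used. Alternatives were other scalings, minimum levels, pseudocounts, fold sizes, centring genes, thinning to 1 depth and other sets of members.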

Additional observations from a re-analysis of the deposited data

Results flagged for a closer look

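For 6 members the counting intervals lay on opposite sides of the median gene for Post over Pre in the RNA only libraries and in the RNA and DNA libraries, pairs that share no library. With 46 members past the minimum, the number was near the 10.2% of all genes that did the same and shows nothing particular to the members. These difference values are the relative log2 ratio with RNA only minus that with RNA and DNA. RAN had a difference of 0.85, from 0.54 with RNA only and -0.31 with RNA and DNA. The importin alphas KPNA2 and KPNA4 had differences of 0.49 and 0.36, and the import receptor IPO5 of 0.42. The pore proteins NUP210 and NUP214 ran the other way, with -0.42 and -0.35. None of these differences was tested, since each condition is a single library.

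Set out by chromatin profiling, the intervals for RNA and DNA over RNA only lay on opposite sides in the Pre and the Post libraries for 3 members, or 6.52%, against 7.86% of all genes. For any gene this is the same contrast of the 4 libraries as above, apart from the centring, and not a separate observation. The ratio in the Pre libraries minus that in the Post libraries was 0.42 for IPO5, 0.29 for IPO7 and -0.34 for NUP214. The Post library with RNA only, which held 34.8% of its counts in the clone genes, enters every one of these differences, and its part in them was not tested.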

How the results depend on the processing

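With 1 library per condition, nothing here separates an effect of the order of steps from the chance of a preparation, and depth limits the low members most. Of 46 members, TNPO2 (Post over Pre, RNA only) and RAN (RNA and DNA over RNA only, Post) were the members past 1.5-fold. No paired analysis was possible because the labels give no replicate numbers that groups share. An additive fit over the 4 libraries, which would leave 1 residual degree of freedom, was not run. The counts of members past 1.5-fold and the medians over all members that are not listed below stayed within 1.5 times, or within the interval of the median, under the alternatives run. Each cause of a shift below was not tested unless the alternative itself sets it.

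Without centring, the member median was -0.48 for Post over Pre in the RNA only libraries, -0.18 in the RNA and DNA libraries and 0.38 for RNA and DNA over RNA only in the Post libraries, as the median of all genes moves likewise. The number of members past 1.5-fold then became 9 lower for Post over Pre with RNA only, and 4 higher and 0 lower for RNA and DNA over RNA only in the Post libraries, where RAN had -0.40. Over all genes the share higher was 5.26% and the share lower 2.01% with centring, and 1.27% and 30.5% without, for Post over Pre with RNA only. For RNA and DNA over RNA only in the Post libraries the shares were 1.34% and 7.63% with centring, and 22.7% and 2.53% without.

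Of 436 medians of role groups 31 moved by more than the standard deviation within the group (groups of 1 gene: by more than 0.1), 23 of them without centring. The other 8 were, for Post over Pre with RNA only, the Y complex (-0.29 at a minimum of 50 RPM), the export receptors (-0.02 with centring on genes of at least 50 RPM) and the mRNA export receptor (0.48 at a minimum of 1 RPM, which adds NXT1), and -0.44 for the last in the Post libraries, RNA and DNA over RNA only. For Post over Pre with RNA and DNA the membrane group had 0.16 with TMM and with median-of-ratios library sizes and 0.17 thinned, and in the Pre libraries, RNA and DNA over RNA only, the cytoplasmic face had -0.11 thinned.

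Shares over all genes at the same setting follow each number of members. A minimum of 1 RPM gave 2 higher for Post over Pre with RNA only (KPNA7 and NXT1, of 16 to 28 counts; 11.4% of all genes) and 3 lower for RNA and DNA over RNA only in the Post libraries (9.90%). Centring on genes of at least 50 RPM gave 1 higher (RAN, 0.59; 6.55%) and 2 lower (8.98%) in the same comparisons. Thinning to the smallest total gave 1 higher for Post over Pre with RNA and DNA (NUP62CL, 0.66; 1.31%). With a size rule of 25% upward, or the inverse ratio downward, 3 were higher (15.4%) and 2 lower (13.1%) for Post over Pre with RNA only. With RNA and DNA, 1 was higher (6.79%) and 3 lower (9.94%). For RNA and DNA over RNA only in the Post libraries 1 was higher (11.5%) and 5 lower (17.5%). At 2-fold both single calls were lost. This left 0 lower for Post over Pre with RNA only (0.0519%). It also left 0 lower for RNA and DNA over RNA only in the Post libraries (2.32%). Counting intervals in place of a fold were chosen after seeing the data. They gave 11 higher (18.8%) and 10 lower (21.4%) for Post over Pre with RNA only, and 7 (17.7%) and 18 (19.7%) with RNA and DNA. For RNA and DNA over RNA only they gave 9 (20.7%) and 14 (20.4%) in the Post libraries. In the Pre libraries they gave 6 (7.58%) and 4 (6.96%). Members and all genes were not matched for level.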
